A study of Mus musculus with 12 samples.

Results

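The genotype effect that is common to 3 stages of thymocyte development was measured as the difference between IkL/L and wild-type (WT) cells averaged over DN3, DN4 and DP cells, with equal weight for each stage. All 12 arrays of the series entered it, 6 from IkL/L cells and 6 from WT cells, and it was computed for the 34958 of 45099 probe sets that the platform table pairs with 1 gene symbol, which represent 18194 genes. The groups were IkL/L DN3, IkL/L DN4 and IkL/L DP cells, against WT DN3, WT DN4 and WT DP cells, with 2 arrays each. The cells were sorted from mouse thymus, the cells of 3 mice were pooled for sorting, and no treatment, age or strain is given in the sources used here. In the series title, IkL/L cells are the Ikaros-deficient ones. The labels do not say whether the 2 arrays of a group came from separate pools. In each IkL/L group only 1 of the 2 arrays had Y-linked signal, so these 2 did not measure the same cells. For the WT groups the point is unknown. The tests measure the spread between arrays, which may be partly technical.

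Ikzf1 encodes Ikaros, a DNA-binding zinc-finger protein of lymphoid cells that can repress or activate its target genes and that works with chromatin complexes such as NuRD. The IkL allele is known as a hypomorphic allele of Ikzf1 with a lacZ reporter inserted, and it is present in every cell of the mouse, so cells other than thymocytes carry it too. Thymocytes pass from the DN3 stage, where the T cell receptor beta chain is rearranged and Notch signals are strong, through DN4 to the DP stage, where CD4 and CD8 are both on the surface. A gene with a difference at a single stage can enter an average over the stages, so even and uneven effects are described separately.

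The values are log2 signals, so a difference of 1 is a doubling of signal, and array medians lay between 5.14 and 5.22. Arrays of a group correlated across probe sets with r between 0.988 and 0.996 (probe sets are not independent replicates). Stage markers followed the labels in most but not all cases. Il2ra, the DN3 surface marker CD25, averaged 10.4 in IkL/L DN3 and 10.7 in WT DN3 cells and no more than 5.98 in the DN4 and DP groups, and Cd4 averaged 10.85 in IkL/L DP and 11.03 in WT DP cells. The DN3 marker Dtx1, a Notch target, was brighter in IkL/L DP (9.63) than in IkL/L DN3 cells (9.20), and Ptcra was nearly level there (10.04 and 10.15), whereas in WT cells both were brightest in DN3. The 3 IkL/L arrays with the number 2 stood apart in Y-linked signal: Eif2s3y lay between 2.82 and 3.12 on them and between 7.78 and 9.58 on the other 9 arrays. Eif2s3y therefore had an averaged difference of -2.84, larger than any other fall, and yet missed the test (adjusted p = 0.235, limma). The counts of calls are given with and without these 3 arrays.

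Ikzf1 itself was lower in IkL/L cells. Its brighter probe set read 11.23 and 11.23 in IkL/L DN3, 11.22 and 11.18 in IkL/L DN4 and 11.75 and 11.56 in IkL/L DP cells, against 11.83 and 11.93 in WT DN3, 11.78 and 11.88 in WT DN4 and 12.30 and 12.40 in WT DP cells. The 2 genotypes did not overlap at any stage. Averaged over stages the signal was 63.3% of WT (95% interval 57.5% to 69.7%), a log2 difference of -0.66 ± 0.06 (SE; adjusted p = 0.000142, limma over all probe sets). The dimmer probe set differed by -0.52 ± 0.08 (adjusted p = 0.00365), with -0.29 in DN3, -1.03 in DN4 and -0.23 in DP cells. The position of these probe sets relative to the lacZ insertion is unknown here, so neither gives the amount of Ikaros protein.

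In limma, 2392 of 34958 probe sets passed an adjusted p of 0.05 for the averaged difference, which is 6.84% of all, while 7495 had an unadjusted p below 0.05. Of these, 1400 were higher and 992 were lower in IkL/L cells. The large changes were mostly rises: 218 probe sets were higher by at least 1 on the log2 scale and 64 were lower by as much, 32 rose and 3 fell by at least 2, and 9 rose and 0 fell by at least 3. The median difference was 0.50 among those called higher, -0.46 among those called lower and -0.02 over all probe sets. Without the 3 IkL/L arrays that lack Y-linked signal, 1509 probe sets were called, 1056 higher and 453 lower, and 1232 of the 2392 were among them. The balance also moved with scaling: 58.5% of calls were higher as deposited, against 46.5% (1177 higher, 1355 lower) after a second quantile normalization and 70.0% without those 3 arrays. The total fell to 1459 without WT DN3 replicate 1, to 1463 without WT DN3 replicate 2, to 1476 without WT DN4 replicate 2 and to 1477 without IkL/L DN4 replicate 2. Without IkL/L DN3 replicate 1 it was 3385, of which 1622 were lower. Arrays of a genotype with equal numbers may share a pool of mice across the stages, and in IkL/L cells Y-linked signal followed the number at each stage. The test of 6 arrays against 6 treats arrays as independent, so its intervals may be too narrow and its adjusted p values too small. It called 1789 probe sets with genotype and number as a random block, and 699 when each genotype was reduced to the means of its 2 numbers.

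**Figure D1:**
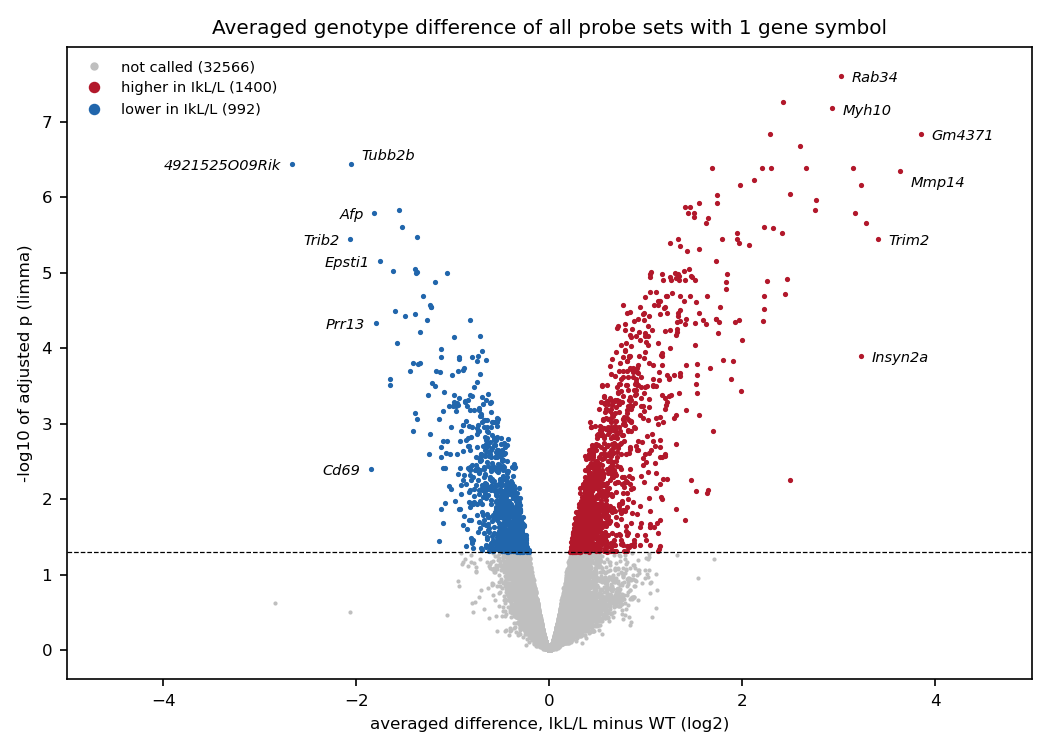
Averaged difference between IkL/L and WT cells (x axis, log2) against -log10 of the limma adjusted p (y axis) for 34958 probe sets. The dashed line is an adjusted p of 0.05, the 1400 probe sets called higher are red and the 992 called lower are blue, and rises reach 3.85 while called falls stop at -2.67. The lone uncalled points at -2.84 and -2.06 are the Y-linked genes Eif2s3y and Kdm5d.

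Most called probe sets moved the same way at each stage. Of the 2392, 2164 (90.5%) had a difference of the same sign at all 3 stages, against 35.6% of all probe sets, and 228 had an opposite sign at 1 stage. Both IkL/L arrays lay on the same side of both WT arrays at all 3 stages for 1508 of them (923 higher, 585 lower), which is 63.0% of the called and compares with 6.59% of all probe sets. The averaged test used these values too, so the shares describe the called set and are no separate support. The median difference among those called higher was 0.40 in DN3, 0.57 in DN4 and 0.52 in DP cells, and among those called lower -0.51, -0.46 and -0.38. Over genes rather than probe sets, each gene taken by its brightest probe set, 1482 of 18194 (8.15%) were called, 891 higher (4.90%) and 591 lower (3.25%). Of 1349 genes with a called probe set and at least 1 other, only 366 had at least 2 called probe sets, 364 of them in 1 direction.

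Among named genes the largest averaged rise was that of Mmp14, a membrane-anchored metalloproteinase that cleaves collagen and other matrix proteins. It read 8.29 and 7.65 in IkL/L DN3, 8.92 and 8.64 in IkL/L DN4 and 10.11 and 10.23 in IkL/L DP cells, against 4.87 and 4.61 in WT DN3, 5.24 and 5.27 in WT DN4 and 5.66 and 6.41 in WT DP cells. All IkL/L arrays lay more than 1 log2 unit above all WT arrays. The averaged signal was 12.4 times that of WT (95% interval 9.89 to 15.5), a log2 difference of 3.63 ± 0.15 (SE, 6 arrays against 6; adjusted p = 4.42e-07). A second probe set of the gene rose by 0.75 (adjusted p = 0.00506) and another differed by 0.16 (adjusted p = 0.193), both at signals near the array median. Only Gm4371, an unnamed transcript passed over in the choice of named genes, rose more, by 3.85.

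Ptgfrn, Ctnnd1 and Mpzl2 encode further surface and adhesion proteins. Ptgfrn, an immunoglobulin-family membrane protein that binds tetraspanins, read 8.18 and 7.88 in IkL/L DN3, 8.01 and 7.96 in IkL/L DN4 and 6.76 and 7.35 in IkL/L DP cells, against 4.65 and 4.46, 4.42 and 4.91, and 4.29 and 4.53 in WT DN3, DN4 and DP cells. A second Ptgfrn probe set, below the array median on every array, was not called (0.26, adjusted p = 0.0686). On the first, the WT signal was below the array median on all 6 WT arrays and the IkL/L signal above it on all 6 IkL/L arrays. The difference there was 3.15 ± 0.12 (adjusted p = 4.12e-07). Ctnnd1, which encodes p120-catenin, the catenin that stabilises cadherins at the membrane, showed the same switch around the median, with 7.03 to 8.19 in IkL/L and 4.57 to 4.95 in WT cells and a difference of 2.75 ± 0.13 (adjusted p = 1.46e-06). Mpzl2, a homophilic adhesion protein of thymus and epithelia, was bright in DN3 cells of both genotypes, at 11.67 and 11.73 in IkL/L and 10.55 and 10.53 in WT cells. In DP cells it read 8.44 and 8.21 in IkL/L and 4.24 and 3.96 in WT cells, so the WT decline between the stages was much larger than the IkL/L one. Its averaged difference was 2.60 ± 0.09 (adjusted p = 2.09e-07).

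Dock1, Myh10 and Rab34 encode proteins of the cytoskeleton and of membrane traffic. Dock1, an activator of the GTPase Rac, read 7.56 to 9.42 in IkL/L and 4.83 to 5.79 in WT cells and differed by 3.28 ± 0.17 (adjusted p = 2.16e-06). The other Dock1 probe set, below the array median on every array, was not called (0.19, adjusted p = 0.325). Myh10, the heavy chain of non-muscle myosin IIB, was well measured in both genotypes, with 11.26 and 11.17 in IkL/L DN3, 11.12 and 11.15 in IkL/L DN4 and 10.14 and 9.86 in IkL/L DP cells, against 8.58 and 8.68 in WT DN3, 8.02 and 8.25 in WT DN4 and 6.62 and 6.96 in WT DP cells. The gap was therefore similar at a high and at a moderate WT signal, at 2.59 in DN3, 3.00 in DN4 and 3.21 in DP cells, and the averaged signal was 7.63 times that of WT (95% interval 6.71 to 8.69; adjusted p = 6.61e-08). Rab34, a small GTPase of the Golgi and of cilium formation, had the lowest adjusted p of the averaged test, 2.44e-08, at a difference of 3.02 ± 0.07, and its second probe set rose by 2.76 (adjusted p = 1.07e-06).

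The remaining large rises were of mixed function. Trim2, a ubiquitin ligase, rose by 3.41 ± 0.19 (adjusted p = 3.58e-06), with IkL/L signals of 6.69 to 8.29 and WT signals of 3.80 to 4.20, and 4 of its 5 other probe sets were also called higher, by 0.45 to 1.95. Ppic, the peptidyl-prolyl isomerase cyclophilin C, read 10.60 to 11.20 in IkL/L DN3 and DN4 and 8.76 and 9.02 in IkL/L DP cells, against 7.32 to 8.67 and 4.83 and 4.62 in WT cells, and rose by 3.23 ± 0.14 (adjusted p = 6.75e-07). Spin4, of the spindlin family, had the most even rise of these 12 genes, with differences of 2.46, 2.71 and 2.80 in DN3, DN4 and DP cells, 2.65 ± 0.10 on average (adjusted p = 4.12e-07), with IkL/L signals of 5.91 to 6.71 and WT signals of 3.69 to 3.98. Sertad4 rose by 3.17 ± 0.16 (adjusted p = 1.62e-06), from differences of 1.43 in DN3, 2.94 in DN4 and 5.14 in DP cells. Insyn2a, named for a role at inhibitory synapses, rose by 3.23 ± 0.30 (adjusted p = 0.000126) on 1 probe set, while its brightest probe set differed by 0.08 (adjusted p = 0.56), so that rise rests on a single one of its 3 probe sets.

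**Figure D2:**
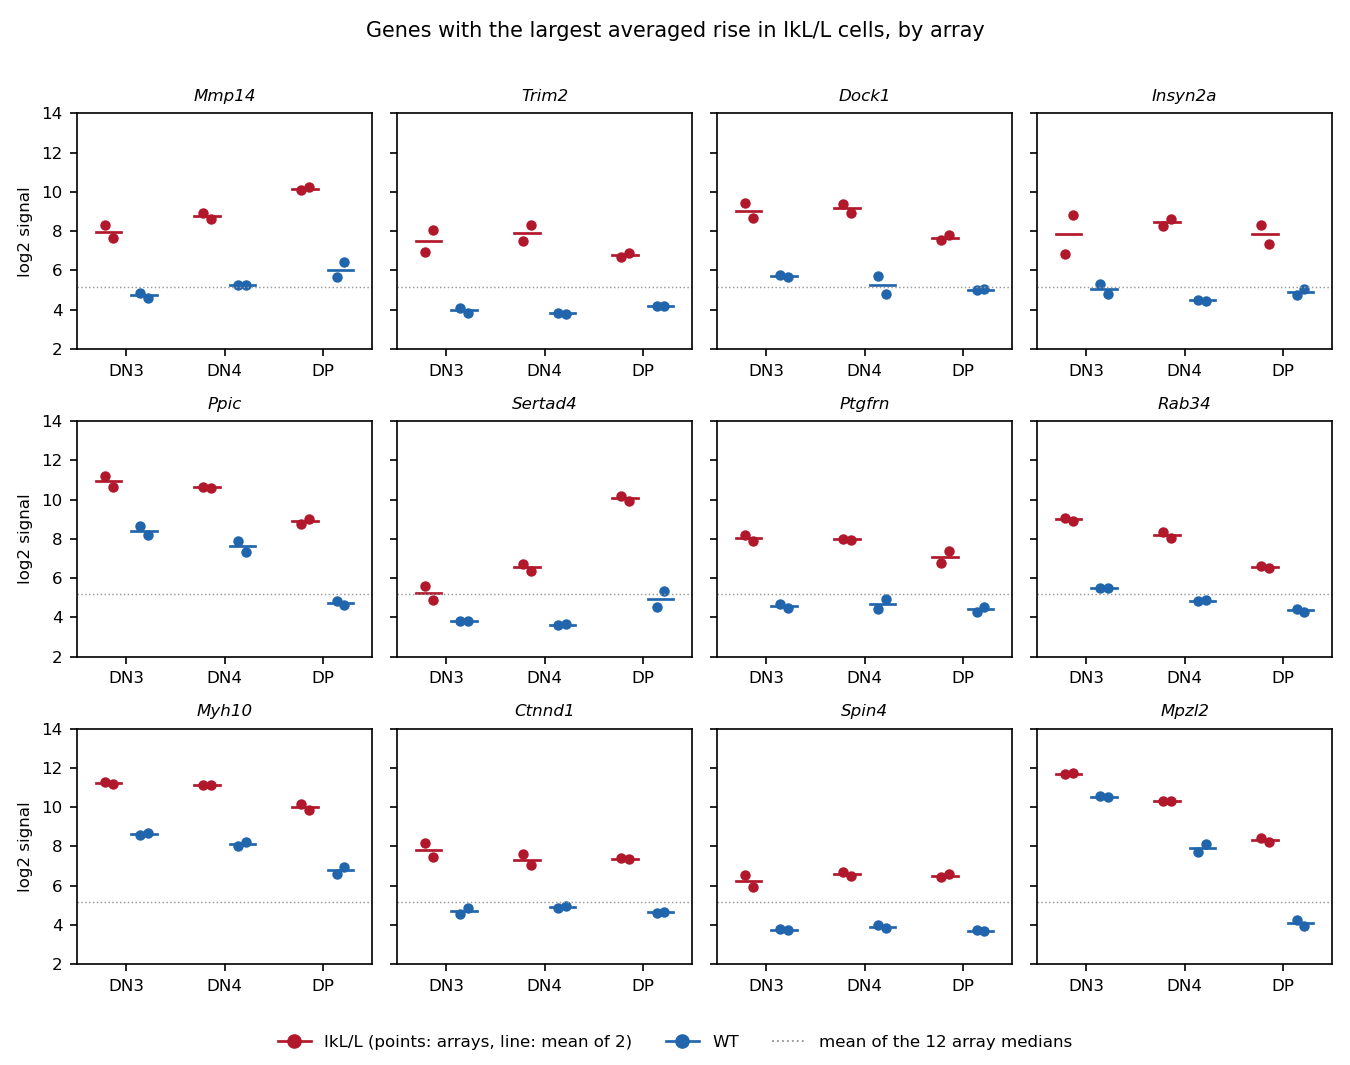
Log2 signal (y axis) of the 12 genes with the largest averaged rise, by stage (x axis), with IkL/L arrays in red to the left of WT arrays in blue; points are arrays, short lines are means of 2, and the dotted line is the mean of the array medians. In each panel the IkL/L points lie above the WT points at all 3 stages.

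Promoter sequences of the leading genes are shown because the members of the effect were selected for moving together and Ikaros binds DNA. The windows are the RefSeq promoter windows of mouse build GRCm38.p6, 250 bases before to 50 after the most upstream start, printed 5′ to 3′ on the strand of the gene. The letters TGGGAA, the core of the motif that Ikaros recognises, were searched on both strands, where the other strand reads TTCCCA, and matches are in capitals. For each direction, the first gene in order of size whose window holds no match and the first whose window holds a match are given, and each match in these windows lies on the opposite strand.
Mmp14, higher, chr14:54431348-54431647, plus strand: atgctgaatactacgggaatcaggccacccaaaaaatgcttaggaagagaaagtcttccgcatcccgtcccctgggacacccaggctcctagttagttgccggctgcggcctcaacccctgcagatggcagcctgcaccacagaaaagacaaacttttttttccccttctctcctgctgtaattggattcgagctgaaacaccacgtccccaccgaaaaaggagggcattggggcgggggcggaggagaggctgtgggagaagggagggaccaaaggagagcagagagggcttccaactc
Dock1, higher, chr7:134670437-134670736, plus strand: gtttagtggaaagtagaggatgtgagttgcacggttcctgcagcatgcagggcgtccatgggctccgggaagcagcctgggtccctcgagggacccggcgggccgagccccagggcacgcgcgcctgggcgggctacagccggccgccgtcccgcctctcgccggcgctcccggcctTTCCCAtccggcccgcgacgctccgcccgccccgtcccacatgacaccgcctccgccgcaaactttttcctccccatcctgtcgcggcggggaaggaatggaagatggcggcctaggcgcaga
Trib2, lower, chr12:15816736-15817035, minus strand: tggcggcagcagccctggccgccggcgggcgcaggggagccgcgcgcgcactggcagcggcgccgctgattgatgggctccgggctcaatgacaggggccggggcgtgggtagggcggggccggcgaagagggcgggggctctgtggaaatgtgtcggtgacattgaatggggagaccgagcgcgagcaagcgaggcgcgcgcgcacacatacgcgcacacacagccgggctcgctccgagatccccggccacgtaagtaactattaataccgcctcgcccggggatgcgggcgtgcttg
Epsti1, lower, chr14:77903989-77904288, plus strand: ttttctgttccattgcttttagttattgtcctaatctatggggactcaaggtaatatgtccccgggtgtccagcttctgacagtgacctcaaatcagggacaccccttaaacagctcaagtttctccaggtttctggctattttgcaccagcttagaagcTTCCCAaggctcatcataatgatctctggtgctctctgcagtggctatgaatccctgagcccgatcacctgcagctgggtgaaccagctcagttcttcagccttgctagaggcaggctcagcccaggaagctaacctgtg
A window was found for 14453 measured genes, and 3482 of these (24.1%) held the motif. Among genes called higher by their brightest probe set it was 194 of 716 (27.1%), and among those called lower 110 of 461 (23.9%), both near the share of all genes. Of the named genes, 4 of 10 large rises and 1 of 7 large falls with a window held it. These letters describe the windows and are no evidence of binding or of its absence.

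The falls were smaller than the rises. Trib2, a pseudokinase of the Tribbles family that controls protein degradation, read 4.95 and 4.64 in IkL/L DN3, 6.35 and 6.37 in IkL/L DN4 and 10.10 and 10.55 in IkL/L DP cells, against 7.87 and 8.11 in WT DN3, 8.76 and 8.91 in WT DN4 and 10.61 and 11.12 in WT DP cells. The gene is brightest in DP cells of both genotypes, and the gap was widest at DN3 and narrow at DP. The averaged signal was 23.8% of WT (95% interval 19.96% to 28.4%), a difference of -2.07 ± 0.12 (adjusted p = 3.58e-06). Its other probe sets, below the array median on every array, differed by -0.17 and -0.02 and were not called (adjusted p = 0.141 and 0.899). Tubb2b, a beta-tubulin, had the shape of the brightest Trib2 probe set. It differed by -3.01 in DN3, -2.37 in DN4 and -0.80 in DP cells, an average of -2.06 ± 0.08 (adjusted p = 3.59e-07). The unnamed transcript 4921525O09Rik had the largest called fall, -2.67.

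The other large falls were of mixed function. Cd69, an early activation marker that retains thymocytes in the thymus, fell by 1.85 ± 0.29 (adjusted p = 0.00397), with IkL/L signals of 5.67 to 8.37 and WT signals of 8.45 to 9.84. Its IkL/L arrays were spread over more than 1 unit in DN3 and in DP cells, and its call was lost when DN4 was left out of the average (-1.24, adjusted p = 0.105) and when each genotype was reduced to the means of its 2 array numbers (adjusted p = 0.0657). Gpr174, a receptor for lysophosphatidylserine, read 6.48 and 6.28 in IkL/L DN3, 5.70 and 5.82 in IkL/L DN4 and 5.09 and 5.80 in IkL/L DP cells, against 8.08 and 7.76 in WT DN3, 7.36 and 7.11 in WT DN4 and 7.30 and 7.12 in WT DP cells. On this probe set the gap was even, with an average of -1.60 ± 0.12 (adjusted p = 3.19e-05). The second probe set of Gpr174 fell by 1.37 (adjusted p = 3.35e-06), but unevenly. It differed by -1.19 in DN3, -0.73 in DN4 and -2.18 in DP cells (adjusted p of the F test 0.0201). Rnf125, a ubiquitin ligase, fell by 1.53 ± 0.08 (adjusted p = 2.43e-06), and Grasp, a scaffold protein also called tamalin, by 1.50 ± 0.12 (adjusted p = 3.72e-05).

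Lsp1 and Tes, which encode a leukocyte F-actin-binding protein and the LIM-domain protein testin of focal adhesions, fell as well. Lsp1 read 5.67 to 6.38 in IkL/L DN3 and DN4 cells and 10.83 and 10.73 in IkL/L DP cells, against 7.89 to 8.46 and 11.05 and 11.59 in WT cells, an average of -1.57 ± 0.14 (adjusted p = 8.6e-05). Tes fell by 1.65 ± 0.18 on its more responsive probe set (adjusted p = 0.000304) and by 1.42 on the brighter one (adjusted p = 0.000157). Epsti1, an interferon-inducible gene, read 5.87 to 8.45 in IkL/L and 7.32 to 10.38 in WT cells and fell by 1.75 ± 0.11 (adjusted p = 6.91e-06), and its 3 other probe sets were called lower, by 0.29 to 1.61. Prr13 fell by 1.80 ± 0.15 (adjusted p = 4.63e-05) and the zinc-finger gene Zfp982 by 1.65 ± 0.17 (adjusted p = 0.000253), while the other 2 probe sets of Zfp982 did not pass, at -0.11 and 0.15.

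Afp, which encodes the fetal plasma protein alpha-fetoprotein, was the fall that reached the array floor. It read 4.21 and 4.09 in IkL/L DN3, 4.06 and 4.11 in IkL/L DN4 and 3.29 and 3.49 in IkL/L DP cells, against 5.96 and 5.85 in WT DN3, 5.91 and 6.19 in WT DN4 and 4.89 and 5.30 in WT DP cells. The 6 IkL/L arrays were all below their array median and 5 of 6 WT arrays at or above it, so the average of -1.81 ± 0.09 (adjusted p = 1.61e-06) is a difference from a modest WT signal. Its other 4 probe sets differed by -0.78, -0.55, -0.41 and 0.00, and 2 of them were called.

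**Figure D3:**
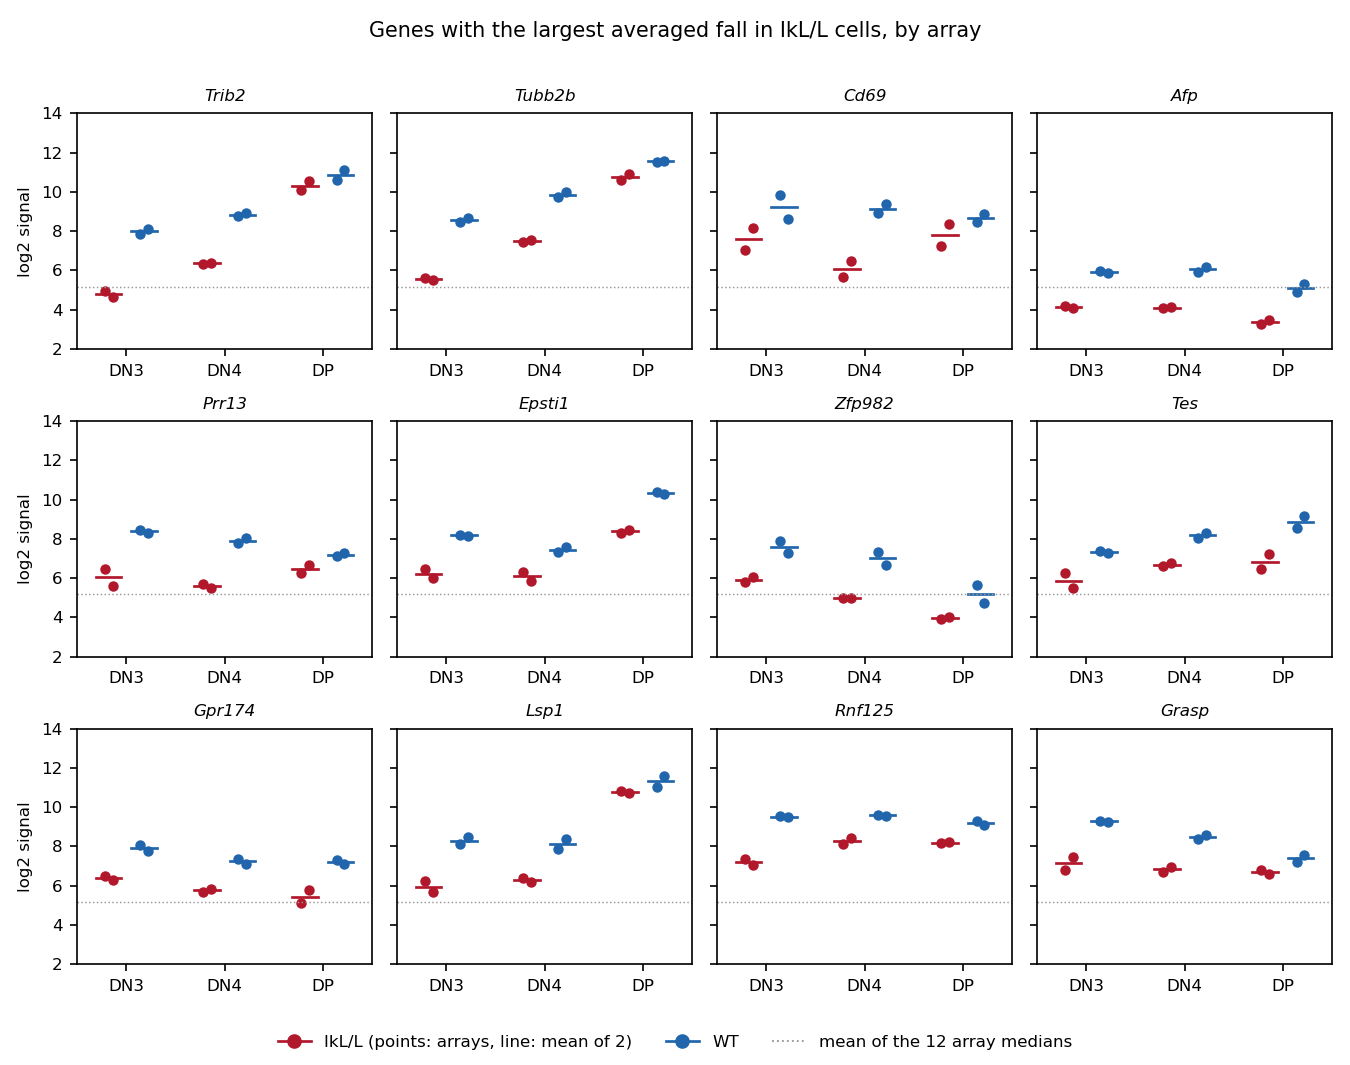
Log2 signal (y axis) of the 12 genes with the largest averaged fall, by stage (x axis), with IkL/L arrays in red to the left of WT arrays in blue; points are arrays, short lines are means of 2, and the dotted line is the mean of the array medians. On the probe sets plotted, Trib2, Tubb2b and Lsp1 approach the WT signal in DP cells, whereas Afp, Epsti1, Tes and Gpr174 keep a similar gap at each stage. Other probe sets of Epsti1 and Gpr174 were less even.

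Ranking by the smallest of the 3 stage differences, instead of by their mean, picks the effects that hold at the weakest stage. On that scale the 8 leading rises were Mmp14, Insyn2a, Ptgfrn, Dock1, Trim2, Myh10, Ppic and Spin4, all of which were already among the largest averages. The 8 leading falls were Afp, Gpr174, Tes, Epsti1, Gimap7, Ccdc117, Unc5cl and Zfp982. Unc5cl, related to the UNC5 netrin receptors, read 7.05 and 7.17 in IkL/L DN3, 7.42 and 7.27 in IkL/L DN4 and 8.87 and 8.91 in IkL/L DP cells, against 8.47 and 8.67, 8.49 and 8.66, and 10.11 and 10.55 in WT DN3, DN4 and DP cells. It was 38.5% of WT on average (95% interval 33.6% to 44.1%; adjusted p = 1e-05). Gimap7, a GTPase of the immunity-associated family, fell by 1.38 ± 0.17 (adjusted p = 0.000862) and Ccdc117 by 1.36 ± 0.13 (adjusted p = 0.000162), although the second probe sets of both missed the test, at -0.27 and -0.06.

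Several of these probe sets carry the platform suffixes s or x, which mark probes that can match more than 1 transcript. They include those of Trim2, Ctnnd1, Trib2, Zfp982, Gpr174 and Grasp, whose signal may hold that of related sequences. Of the 1400 probe sets called higher, 191 (13.6%) were below the array median on all 6 WT arrays, against 39.5% of all probe sets, and 18 of the 191 were at or above it on all 6 IkL/L arrays. Of the 992 called lower, 158 (15.9%) were below it on all 6 IkL/L arrays, against 40.6% of all, and 1 of these was at or above it on all 6 WT arrays. Background can make up most of a signal below the median, and a difference from such a level may understate that in RNA.

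The 25 gene lists held 403 measured genes, of which 57 were called higher and 37 lower in IkL/L cells. Without the 3 IkL/L arrays that lack Y-linked signal the counts were 58 and 36. Each gene is represented by its brightest probe set, and the shares of all 18194 genes, 4.90% higher and 3.25% lower with a median of -0.03, are the background for every count that follows. In bulk RNA, fewer cells of a type and less RNA per cell cannot be told apart.

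Within the Ikaros family, 2 of 5 members were higher and 1 was lower (median 0.26). Ikzf3, which encodes Aiolos, read 7.49 and 7.69 in IkL/L DN3, 8.64 and 8.97 in IkL/L DN4 and 9.83 and 9.83 in IkL/L DP cells, against 6.02 and 6.35 in WT DN3, 7.98 and 8.22 in WT DN4 and 9.29 and 9.38 in WT DP cells. It rose with stage in both genotypes and was higher in IkL/L cells at each, by 0.87 ± 0.09 on average (adjusted p = 0.00024). Ikzf2, which encodes Helios, rose by 0.47 (adjusted p = 0.00319) and Ikzf1 fell, as given above. Among 13 genes of the NuRD complex, 1 was higher (Rbbp7, 0.26) and 1 lower (Mta3, -0.54), and among 18 polycomb genes 1 was higher, Jarid2 (0.53, adjusted p = 0.00052), a cofactor of polycomb repressive complex 2, and 0 were lower. The medians were -0.01 and 0.06.

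Of 19 cell junction and catenin genes, 6 were higher and 1 was lower (median -0.01). Next to Ctnnd1 and Mpzl2, Ctnna1, which encodes alpha-catenin, the link of cadherins to actin, read 11.46 to 11.87 in IkL/L and 9.43 to 10.27 in WT cells and rose by 1.74 ± 0.08 (adjusted p = 9.31e-07). Vcl, which encodes vinculin of the same link, rose by 1.55 ± 0.07 (adjusted p = 1.19e-06), to 7.53 to 8.62 in IkL/L cells, against 5.56 to 7.21 in WT cells. Cdh1, the cadherin itself (E-cadherin), went the other way and is described with the stages. Of 26 actin and myosin genes 7 were higher and 6 lower (median 0.00), so members moved both ways: Dock1, Myh10, Lmcd1 and Cttnbp2nl rose and Lsp1, Tes and the tropomyosin gene Tpm4 (-0.89, adjusted p = 0.000181) fell. Of 16 tubulin and microtubule genes 0 were higher and 4 lower (median -0.06). Tubb2a fell by 0.53 (adjusted p = 0.00243), Map4 by 0.68 (adjusted p = 0.00502) and Tubb3 by 0.50 (adjusted p = 0.0146), while Mid1 differed by 1.71 and missed the test (adjusted p = 0.0608). Mid1 read 6.68 on IkL/L DN3 replicate 1 and 9.8 on replicate 2, which lacks Y-linked signal. On the WT arrays it read 5.87 to 6.52.

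Among 28 matrix, integrin and receptor tyrosine kinase genes 7 were higher and 2 lower (median -0.03). Pdgfrb, the receptor for platelet-derived growth factor B, read 11.06 and 10.55 in IkL/L DN3, 8.997 and 8.995 in IkL/L DN4 and 8.23 and 8.97 in IkL/L DP cells, against 9.35 and 9.69 in WT DN3, 7.50 and 8.06 in WT DN4 and 4.76 and 5.45 in WT DP cells. The groups did not overlap at any stage, and the averaged difference was 2.00 ± 0.18 (adjusted p = 7.76e-05). Igf1r, the receptor of insulin-like growth factor 1, rose by 1.17 ± 0.11 (adjusted p = 0.000168), and the called integrin genes moved both ways. Itga6 and Itgb1 rose by 0.72 and 0.55 (adjusted p = 0.0011 and 0.00794), and Itga4 and Itgae fell by 0.64 and 0.61 (adjusted p = 0.000406 and 0.00271). These lists were drawn up with earlier results of these data known, and several of their members were included for that reason.

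Of 19 genes of the T cell receptor complex and its signalling, 3 were higher and 0 lower (median 0.19): Cd3g by 0.60, Cd3d by 0.48 and Cd6 by 0.42. Of 19 activation and maturation genes, 0 were higher and 5 lower (median -0.31). Besides Cd69, these were Cd52 (-0.83, adjusted p = 0.0107), a small glycoprotein of lymphocytes, the inhibitory receptor Ctla4 (-0.79, adjusted p = 0.00507), the hyaluronan receptor Cd44 (-0.77, adjusted p = 0.0041) and the chemokine receptor Ccr9 (-0.63, adjusted p = 0.00197). Of 14 immediate early and handling stress genes, which respond to cell handling, 2 were lower, Junb (-0.59, adjusted p = 0.0483) and Fos (-0.57, adjusted p = 0.0378), and 0 higher (median -0.28), and the part of handling in the activation genes was not tested. Of 13 co-receptor and DP stage genes, Bcl6 was higher (0.64) and Cd8b1 lower (-0.76). The Cd8b1 gap was widest in DN4, with means of 7.82 in IkL/L and 9.47 in WT cells. The means were 5.50 and 6.05 in DN3, and 12.55 and 12.63 in DP cells. Its call was lost under 3 of 28 other settings.

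Among 24 T-lineage transcription factors 3 were higher and 3 lower (median 0.05). Runx1, a core factor of T cell development, read 11.80 and 11.72 in IkL/L DN3, 10.72 and 10.88 in IkL/L DN4 and 10.81 and 10.86 in IkL/L DP cells, against 10.85 and 11.14 in WT DN3, 9.73 and 9.95 in WT DN4 and 10.08 and 9.63 in WT DP cells. Its rise was 0.90 ± 0.09 (adjusted p = 0.000276), while its relative Runx3 fell by 0.78 ± 0.14 (adjusted p = 0.00728), with differences of -0.79 in DN3, -1.59 in DN4 and 0.03 in DP cells. The E-protein gene Tcf4 rose by 0.71 (adjusted p = 0.000393) and Id2, which encodes an inhibitor of E proteins, fell by 0.86 (adjusted p = 0.0413). Of 16 Notch receptors, cofactors and targets 3 were higher and 1 lower (median 0.14). Notch1 rose by 0.80 ± 0.08 (adjusted p = 0.000303), Ptcra, the pre-T cell receptor alpha chain, by 0.47 (adjusted p = 0.0313) and Rbpj, the DNA-binding partner of Notch, by 0.42 (adjusted p = 0.015), and the target Hes5 fell by 0.49 (adjusted p = 0.00535). For Ptcra the sign depended on the stages used: the mean of DN3 and DN4 was -0.11 (adjusted p = 0.689).

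Of 30 cell cycle genes 6 were higher and 0 lower (median 0.23), among them Ccna2 (0.58, adjusted p = 0.00881) and Cdkn1a (0.53, adjusted p = 0.0135), an inhibitor of the cycle. Tyms, the thymidylate synthase gene, passed narrowly (1.13, adjusted p = 0.0486) and lost its call under 19 of 28 other settings. The proliferation marker Mki67, chosen after its value was seen, read 12.74 to 13.47 in IkL/L and 12.43 to 13.03 in WT cells, a rise of 0.45 (adjusted p = 0.00656). Of 19 interferon response genes 6 were higher and 1 lower (median 0.29). Ifih1, the RNA sensor MDA5, rose by 0.99 ± 0.09 (adjusted p = 6.89e-05), Usp18 by 0.83 and Oas1a by 0.74, and Epsti1 was the one that fell. Of 12 Bcl2 family genes the death activator Pmaip1 (Noxa) rose by 1.25 ± 0.07 (adjusted p = 3.98e-06), with 5.89 to 6.38 in IkL/L and 4.54 to 5.06 in WT cells, and Bbc3 (Puma) fell by 0.45 (adjusted p = 0.00547). Of 13 ribosomal protein genes only Rps19 was called, higher by 0.39.

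Markers of other cells that a sort could carry were mostly uncalled. Of 11 B lineage genes 1 was higher (Ighm, 0.45), and their mean level lay between 5.97 and 6.39 on IkL/L and between 6.04 and 6.21 on WT arrays. Of 18 myeloid genes 1 was lower, Cebpb (-0.67), and 0 were higher, with a mean level of 4.76 to 6.19 on IkL/L and 4.97 to 5.27 on WT arrays. The granulocyte gene S100a8, chosen after its values were seen, read 8.96 on IkL/L DN3 replicate 1 and 5.33 on replicate 2, against 4.99 and 5.15 on the WT DN3 arrays, and its averaged difference was not called (1.07, adjusted p = 0.362). Of 9 erythroid genes 0 were called in either direction, but their mean level was 6.51 on IkL/L DN3 replicate 1 and 6.58 on IkL/L DN4 replicate 1, against at most 5.95 on the other IkL/L arrays and 6.14 on the WT arrays, and the part of such cells in the results was not tested. Of 17 thymic stroma genes 2 were higher, Krt18 (1.24, adjusted p = 0.000421) and Col1a2 (0.40, adjusted p = 0.0274). The other 15 were not called, among them Krt8 (-0.12) and Epcam (-0.31), which were picked after their values were seen. The part of stroma cells in the results was not tested. The mean level of the stroma genes lay between 4.95 and 5.12 on IkL/L and between 4.92 and 5.26 on WT arrays.

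Of 18 cytotoxic, NK and gamma-delta genes 2 were higher and 3 lower (median -0.10). Nkg7, a granule membrane protein, fell by 1.34 ± 0.13 (adjusted p = 0.000157), Blk, a kinase found in gamma-delta cells, by 1.03 (adjusted p = 0.00253) and Ctsw by 0.52, while Gzma rose by 0.82 (adjusted p = 0.00122). Of 8 MHC class II genes 2 were higher and 1 lower (median 0.01): H2-Ab1 rose by 1.31 ± 0.11 (adjusted p = 6.65e-05), with 7.38 to 8.89 in IkL/L and 5.88 to 7.84 in WT cells, H2-Oa rose by 0.71 and H2-Ob fell by 0.98. Of 17 stem and progenitor genes 2 were higher and 3 lower (median -0.04). Prom1, a membrane glycoprotein of progenitors, read 7.14 and 7.09 in IkL/L DN3, 7.08 and 6.82 in IkL/L DN4 and 4.93 and 4.66 in IkL/L DP cells, against 4.05 and 4.24, 4.45 and 4.78, and 4.46 and 3.91 in WT DN3, DN4 and DP cells, and rose by 1.97 ± 0.11 (adjusted p = 3.98e-06). Cd93 fell by 0.72 and the homeobox gene Hoxa7 by 0.57.

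**Figure D4:**
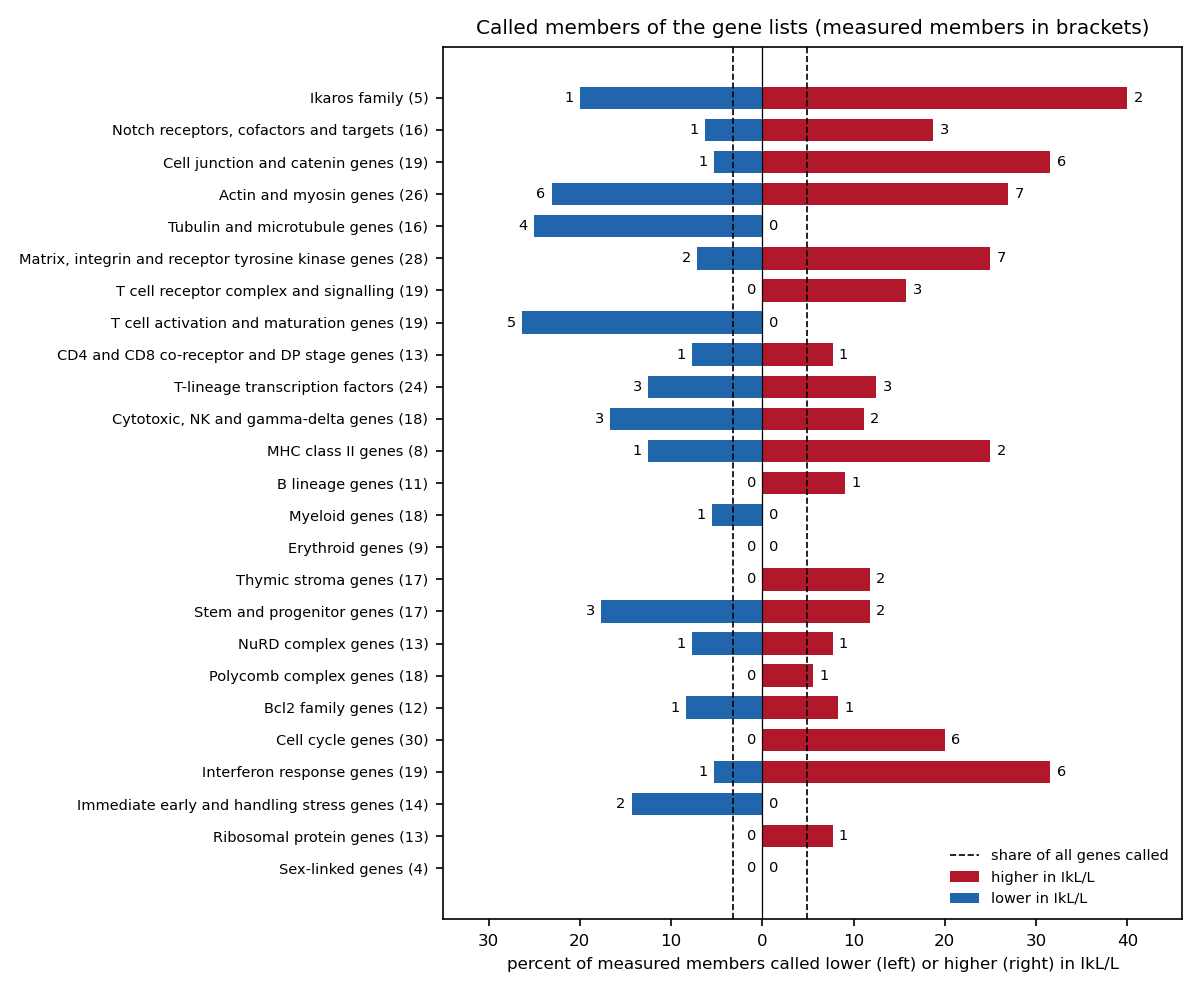
Percent of the measured members of each gene list (count in brackets) called lower (blue, to the left) or higher (red, to the right) in IkL/L cells, with the number of called members beside each bar. The dashed lines are the shares of all genes, 3.25% lower and 4.90% higher, and bars of short lists rest on few genes.

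A moderated F test asked which genotype effects differ between the stages. In limma it called 120 of 34958 probe sets (0.343%) at an adjusted p of 0.05, while 3842 had an unadjusted p below 0.05. Of the 120, 104 were also called in the averaged contrast, which is 4.35% of the 2392, 70 of them higher and 34 lower in IkL/L cells. The stage with the largest difference was DN3 for 28, DN4 for 13 and DP for 63 of the 104. The count was 56 without the 3 IkL/L arrays that lack Y-linked signal, 40 without WT DN3 replicate 1, 43 without IkL/L DP replicate 2, 47 without WT DN4 replicate 1, 48 without WT DN4 replicate 2 and as many without WT DP replicate 1, 49 without WT DN3 replicate 2, 55 without IkL/L DN4 replicate 2, 78 without IkL/L DN4 replicate 1 and 319 without IkL/L DN3 replicate 1. A miss in this test does not show that an effect was equal at the 3 stages.

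The 6 with the lowest F test p had differences that varied widely in size between the stages. Cdh1, which encodes E-cadherin, read 4.41 and 4.23 in IkL/L DN3, 3.43 and 3.47 in IkL/L DN4 and 3.39 and 3.51 in IkL/L DP cells, against 8.06 and 7.80 in WT DN3, 4.40 and 4.42 in WT DN4 and 3.44 and 3.69 in WT DP cells. Of the 12 arrays only those of WT DN3 cells were above the array median, and the difference was -3.61 there, -0.96 in DN4 and -0.12 in DP cells (adjusted p of the F test 7.92e-05). Lmcd1, a LIM-domain cofactor, and Fkbp9, a peptidyl-prolyl isomerase of the endoplasmic reticulum, were higher in IkL/L cells, and also differed most in DN3 cells. Lmcd1 differed by 5.45, 1.57 and 0.21 in DN3, DN4 and DP cells, and Fkbp9 by 3.90, 2.84 and 0.53. Fkbp9 passed the test in DP cells too (adjusted p = 0.0419), and the averages were 2.41 for Lmcd1 and 2.42 for Fkbp9.

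Syt14, Vldlr and Pde10a differed most in DP cells. Syt14, of the synaptotagmin family of membrane trafficking proteins, read 8.52 and 8.73 in IkL/L DP cells, against 5.005 and 5.14 in WT DP cells, and between 4.01 and 4.60 in the DN3 and DN4 groups. Vldlr, the very low density lipoprotein receptor, read 7.08 and 6.94 in IkL/L DP cells, against 3.63 and 3.84 in WT DP cells, and Pde10a, a cyclic nucleotide phosphodiesterase, 6.84 and 6.52 against 3.51 and 3.67. On these probe sets all 3 were below the array median in the WT groups and in the IkL/L DN groups. The brightest probe set of Pde10a, however, was above it on all 12 arrays. That one read 6.74 to 7.50 in WT cells, 6.63 to 7.22 in IkL/L DN3 and DN4 cells, and 8.34 and 8.40 in IkL/L DP cells. For Fkbp9, Vldlr and Pde10a the responsive probe set was not the only one of its gene. The others differed on average by between -0.08 and 0.43, most without a call. In DP cells, further called probe sets of Vldlr differed by 0.82, 0.89 and 1.03, and uncalled ones by 0.68 and -0.05. For Pde10a the brightest probe set was called and differed by 1.06 there, and uncalled ones by 0.28, 0.28 and -0.09. The other probe set of Fkbp9 was not called (0.33, adjusted p = 0.0835).

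**Figure D5:**
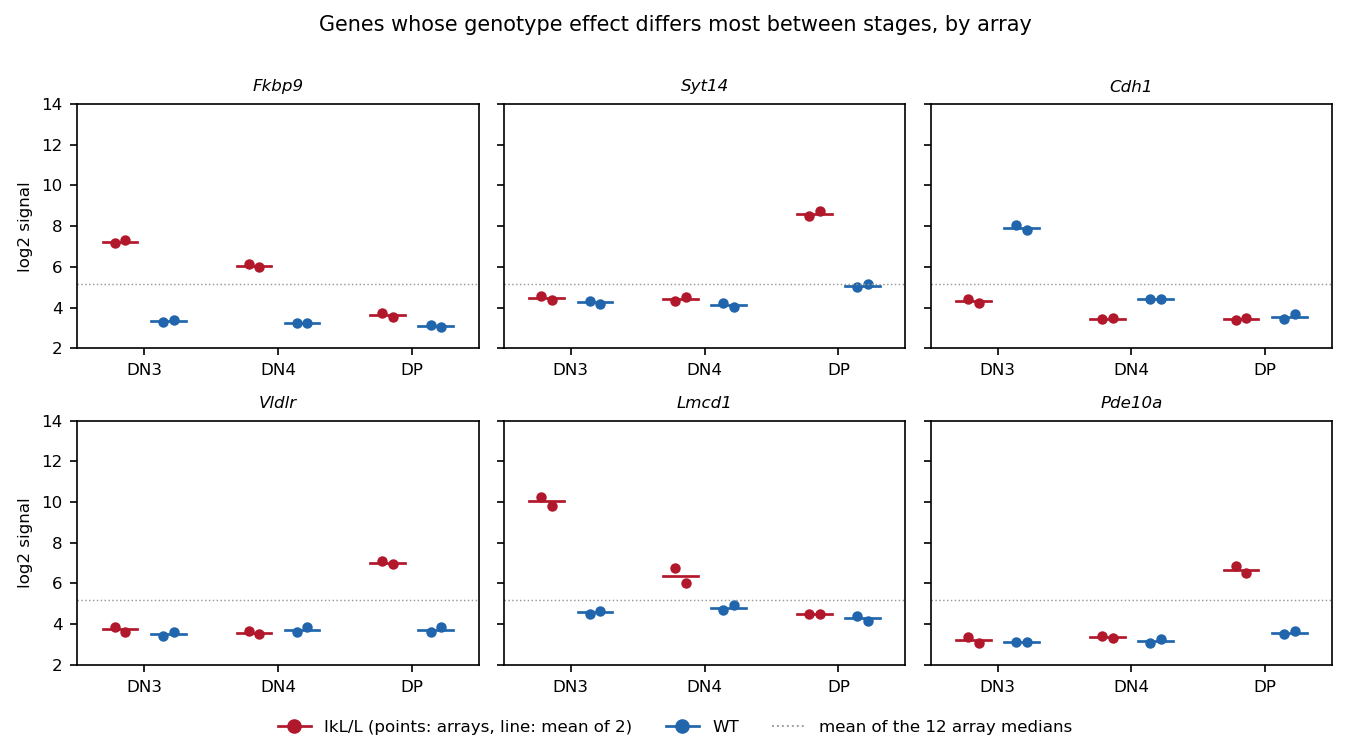
Log2 signal (y axis) of the 6 called genes whose genotype effect differed most between stages by the F test, by stage (x axis), with IkL/L arrays in red to the left of WT arrays in blue; points are arrays, short lines are means of 2, and the dotted line is the mean of the array medians. Cdh1, Lmcd1 and Fkbp9 differ most in DN3 cells and Syt14, Vldlr and Pde10a in DP cells.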

How the data were processed

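RNA of sorted thymocytes was measured on Affymetrix arrays, with biotin-labelled targets made in 2 rounds of amplification per the labels' protocols. Labelling was done in several series, and the labels do not say which one a sample belongs to. The series could therefore not enter the model and may coincide with genotype or stage. The deposited log2 values were made by the authors with RMA per the submitters' processing notes (version not given), which corrects background, normalizes and summarises each probe set. Such values compress differences near the background, and the number of arrays limits precision. Genes were named from the platform table, and 34754 of 34958 gene IDs were found in RefSeq, which changed 0 symbols. No column of per-sample values was left unmapped.

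Groups followed the titles and the genotype labels. Limma 3.58.1 in R 4.3.3 fitted 1 mean per group over all 12 arrays (6 residual and 4.24 prior degrees of freedom), with no filter on low signal. The contrasts were IkL/L minus WT averaged over 3 stages, the 3 single stages, and an F test of their difference, with Benjamini-Hochberg adjustment over 34958 probe sets and a threshold of 0.05. Every adjusted p comes from limma. The code was tested on simulated data. Promoter windows were searched in Python 3.11.15. Statmod 1.5.0 served the random block.

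Genes were named by a rule: Ikzf1, the 12 largest averages and the 8 largest smallest-stage differences in each direction among called probe sets whose arrays did not overlap at any stage, the 6 lowest F test p, and up to 4 called members of each list by size. Unnamed transcripts were skipped. Members and lists were chosen with earlier results of these data known, and genes outside the rule were named after their values were seen (Eif2s3y, Kdm5d, Gm4371, 4921525O09Rik, the uncalled Mid1, Krt8, Epcam and S100a8, and Mki67, Itga6, Itgb1, Itga4, Itgae, Tpm4, Ccr9 and the markers Il2ra, Cd4 and Dtx1). Whether array numbers pair the genotypes is not known: deviations of equal numbers correlated at -0.28 in DN3, -0.19 in DN4 and 0.13 in DP cells. With 2 arrays per group each stage gives a single correlation, which cannot decide it. Within a genotype, equal numbers of different stages correlated at 0.20 to 0.29 in WT cells. In IkL/L cells the values were 0.52 for DN3 with DN4, and -0.07 and -0.12 for these with DP. Y-linked signal followed the array number at each stage in IkL/L cells, so stages may share pools. The random block models this with a single correlation for all pairs, which cannot follow such unlike values.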

Additional observations from a re-analysis of the deposited data

Results flagged for a closer look

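For 20 named genes the genotype effect differed between stages in limma's F test. The adjusted p of that test was 7.92e-05 for each of Cdh1, Fkbp9 and Syt14, 0.000127 for Vldlr, and 0.000199 for both Lmcd1 and Pde10a. Among the genes with the largest averages it was 0.00101 for Mpzl2, 0.00276 for Tubb2b, 0.00835 for both Sertad4 and Trib2, 0.0199 for Rab34 and 0.0466 for Rnf125. Mpzl2 and Sertad4 widened toward the DP stage, with differences of 1.16, 2.41 and 4.22 and of 1.43, 2.94 and 5.14 in DN3, DN4 and DP cells. Trib2 narrowed, at -3.20, -2.48 and -0.54, and Rab34 and Rnf125 differed by 2.22 and -0.995 in DP cells.

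Among list members it was 0.00494 for Cttnbp2nl (3.58, 1.31 and 0.64 in DN3, DN4 and DP cells), 0.0129 for Prom1 (2.97, 2.33 and 0.61), 0.0166 for Gzma (0.26, 0.08 and 2.11) and 0.017 for Ptcra (-0.62, 0.39 and 1.63). It was 0.0251 for Cd93 (-1.04, -1.08 and -0.04), 0.0276 for Nkg7 (-1.74, -2.29 and 0.00), 0.0321 for Col1a2 (0.13, -0.25 and 1.31) and 0.0424 for Notch1 (0.06, 0.84 and 1.50).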

How the results depend on the processing

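The 2392 calls (1400 higher, 992 lower), the 1508 without overlap at any stage and the 120 F test calls moved with the settings, and the cause was not tested beyond the smaller sets some settings use. The 75th percentile filter tested 12011 of 34958 probe sets and gave 1534 calls (584 lower), 947 without overlap and 62 F test calls. Of the 2392 calls, 1421 were among those tested, and 1413 were called again. Averaging the probe sets of each gene counts genes, of which 18194 were measured, and gave 915 higher and 979 without overlap. By brightest probe set 891 genes were higher. Both settings test fewer units, so their counts cannot be set directly against the 2392. Without the 3 IkL/L number 2 arrays there were 1509 calls (453 lower) and 56 F test calls, and with 2 means against 2, 699 calls (452 higher, 247 lower). DN4 with DP gave 529 lower, and DN3 with DP 1296 calls (757 higher, 539 lower). A threshold of 0.01 left 1044 calls (671 higher, 373 lower), 832 without overlap and 32 F test calls. A difference of at least 1 left 282 (218 higher, 64 lower), 249 without overlap. List members, 57 higher and 37 lower, became 28 and 24 with 2 means against 2, 23 lower over DN3 with DP, and 19 and 9 at a difference of at least 1. Without each array in turn, calls ranged from 1459 to 3385, higher from 883 to 1763, lower from 520 to 1622 and F test calls from 40 to 319. With a random block for genotype and array number 1789 remained, all among the 2392, at a consensus correlation of 0.0796. The replicate block gave 2173 calls, 1308 higher and 865 lower, and 97 F test calls.

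Of 90 named values 47 kept direction and call under every setting, 43 lost the call under at least 1, and 2 reversed when DP was left out of the average: Ptcra (-0.11, adjusted p = 0.689) and Col1a2 (-0.060, adjusted p = 0.812). The calls lost most often were those of Tyms (19 of 28 settings), Junb (17 of 28), Tal1 (17 of 26), Cd6 (16 of 28), Id2 (15 of 28), and Fos and Rbbp7 (14 of 28 each). Of the 24 largest averages Cd69 and Insyn2a (0.08 on its brightest probe set, adjusted p = 0.54) lost theirs. Cdh1 missed the test in an additive model (adjusted p = 0.0624). Genes near the floor cannot show a further fall.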

Other observations

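The families in this paragraph were chosen after their values were seen and carry no test of their own. All 8 measured Gimap genes, GTPases of lymphocyte survival, had an averaged difference below 0 (median -0.35), and 3 were called lower: Gimap7 by 1.38, Gimap8 by 0.96 (adjusted p = 0.00248) and Gimap6 by 0.83 (adjusted p = 0.00408). Gimap8 read 9.88 and 10.60 in IkL/L DP cells, against 11.27 and 11.20 in WT DP cells. Of 9 genes of the Bex and Tceal families 5 were called higher and 0 lower (median 0.31), led by Tceal8 (2.46, adjusted p = 1.21e-05) and Bex1 (2.22, adjusted p = 2.99e-05). Bex1 read 10.80 and 11.06 in IkL/L DN3, 11.42 and 11.09 in IkL/L DN4 and 11.38 and 10.85 in IkL/L DP cells, against 8.66 and 9.14 in WT DN3, 9.12 and 9.60 in WT DN4 and 7.96 and 8.77 in WT DP cells.

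Irs1, Lrp1 and App were likewise picked after their values were seen. Irs1, an adaptor of insulin and insulin-like growth factor receptors, rose by 2.28 ± 0.07 (adjusted p = 1.44e-07), with 6.55 to 6.93 in IkL/L and 4.01 to 4.92 in WT cells, while its relative Irs2 fell by 0.46 (adjusted p = 0.041). Lrp1, an endocytic receptor, rose by 2.23 (adjusted p = 2.04e-05) and App, the amyloid precursor gene, by 2.22 (adjusted p = 2.43e-06), whereas the App relatives Aplp1 and Aplp2 differed by 0.01 and -0.08 without a call.

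Of the 120 probe sets called by the F test, 16 were not called on average. Among them, picked after their values were seen, the Notch target Dtx1 differed by -1.08 in DN3, 0.19 in DN4 and 2.53 in DP cells (adjusted p of the F test 0.0201), the inhibitory receptor gene Pdcd1 by -0.21, -0.87 and 1.19 (0.0376) and Bst1 by -1.93, -0.76 and 1.42 (0.0466).

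By chromosome, between 6.19% and 10.8% of genes were called by their brightest probe set, against 8.15% of all. The X chromosome had the highest share, with 52 higher and 15 lower of 618. Y-linked signal was missing on 3 of the 6 IkL/L arrays and present on all 6 WT arrays. Xist read 12.56 to 12.70 on those 3 arrays and 10.33 to 12.41 on the other 9. The mix of sexes was thus uneven between the genotypes, and its part in the X share was not tested. Of the 40 measured genes nearest to Ikzf1 in chromosome order, 1 was higher and 3 were lower.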
